A study of Mus musculus with 27 samples.

Results

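Protocadherins are the largest branch of the cadherin superfamily of adhesion proteins. The protein-coding genes whose symbol begins with Pcdh were taken from the deposited gene table, which gave 69 genes of 54532. They comprise 14 alpha, 22 beta, and 21 gamma genes of the clustered locus and 12 non-clustered genes. Of the 69, 45 reached a mean of 0.5 FPKM over the libraries (FPKM, the authors' fragment count divided by exon length and library size) and were tested, and 24 did not. Of the tested genes, 1 was alpha, 15 were beta, 20 were gamma, and 9 were non-clustered.

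The libraries were made from mouse embryonic fibroblasts (MEFs), each preparation pooled from 4 mid-gestation embryos with head and heart removed, that were being turned into induced neurons (iNs). The MEFs were WT, Per1-/- (allele Per1tm1Drw), or Per2-/- (allele Per2tm1Drw), from lines on a B6.129 background, and Per1 and Per2 are repressors of the circadian clock. All of them, WT included, received lentiviruses with neuronal transcription factors under doxycycline control, together with the M2rtTA activator, 3 days before day 0. Doxycycline and neuronal medium began on day 0, and RNA was taken on days 0, 2, and 4 from 3 biological replicates per genotype and day, which made 27 libraries in 9 groups. The gene table held 15815013 to 24264097 fragments for each library, after each FPKM value was turned back into its fragments. Per1 ranged from 4.77 to 6.33 FPKM in WT and from 3.23 to 4.96 FPKM in Per1-/- libraries. Per2 ranged from 0.817 to 1.97 FPKM in WT but from 1.87 to 3.3 FPKM in the libraries labelled Per2-/-. The paper reports by western blotting that PER1 and PER2 protein were lost in the respective knockout MEFs. RNA over a whole gene does not measure protein, so these values do not settle the genotype. Those libraries are named by their label throughout.

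Markers of several cell types were present. Neuron markers summed to between 62.8 and 130.1 FPKM on day 0 and between 143.5 and 246.2 FPKM on day 4, and of the 15 only Elavl3, Rbfox3, and Stmn3 were at 0 throughout a group, each on day 0. Of the defining neuron markers, Tubb3 went from 26.7 ± 9.41 FPKM (SD, n = 9) on day 0 to 115.6 ± 27 FPKM on day 4. Rbfox3 went from 0.00111 ± 0.00333 FPKM to 0.083 ± 0.0404 FPKM. The neuron list split in direction. Gap43, Stmn2, and Ncam1 had lower means on day 4 (31.7 to 17.2, 12.3 to 7.13, and 17.6 to 12.3 FPKM). Every other tested neuron marker had a higher mean on day 4 than on day 0. Fibroblast markers stayed high in sum, at 2418 to 4036 FPKM on day 0 and 4278 to 5911 FPKM on day 4, but split in direction. Thy1, Fn1, Prrx1, and Pdgfrb had lower means on day 4 (189.3 to 38.3, 1033 to 430.9, 56.85 to 43.0, and 41.87 to 32.1 FPKM). The other markers of that list had higher means, with Col3a1 going from 156.1 to 1054 FPKM. Macrophage markers summed to between 63.9 and 622.7 FPKM on day 0 and between 343.8 and 1317 FPKM on day 4, with none of the 15 at 0 throughout a group. The part of these cells in the protocadherin results was not tested. In such bulk RNA, fewer cells that express a gene and less RNA per cell cannot be told apart.

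The clustered genes lie side by side on 1 chromosome. In the alpha and gamma clusters each gene has its own promoter and a large variable exon, which codes for the extracellular part and is spliced to constant exons that all genes of the cluster share, whereas each beta gene is complete on its own. Neurons switch on different sets of these genes, and the resulting combination of homophilic proteins lets a neuron tell its own branches from those of its neighbours. The last genes of the alpha and gamma clusters (Pcdhac1, Pcdhac2, Pcdhgc3, Pcdhgc4, and Pcdhgc5) are called C-type and are regulated apart from the others. Non-clustered protocadherins of the delta family (delta-1: Pcdh1, Pcdh7, Pcdh9, and Pcdh11x, and delta-2: Pcdh8, Pcdh10, Pcdh17, Pcdh18, and Pcdh19) act in axon growth and synapse formation, and several delta-2 members recruit the WAVE complex, which drives actin branching.

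The sequence before the start is shown first for 4 non-clustered genes, 3 because they had the largest rises over days (Pcdh17, Pcdh10, and Pcdh20) and 1 because it was high and had no called change (Pcdh19). The 250 bases upstream of the RefSeq start are given for build GRCm38.p6, 5′ to 3′ along the gene, for Pcdh17 (chr14:84443313-84443562, plus strand), Pcdh10 (chr3:45378148-45378397, plus strand), Pcdh20 (chr14:88471397-88471646, minus strand), and Pcdh19 (chrX:133688994-133689243, minus strand). Capitals mark the CCAAT box, CCAAT or its reverse complement ATTGG.
Pcdh17: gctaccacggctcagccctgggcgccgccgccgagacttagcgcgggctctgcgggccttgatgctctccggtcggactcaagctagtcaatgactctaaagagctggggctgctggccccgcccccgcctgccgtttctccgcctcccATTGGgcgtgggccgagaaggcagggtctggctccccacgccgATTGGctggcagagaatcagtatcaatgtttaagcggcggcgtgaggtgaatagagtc
Pcdh10: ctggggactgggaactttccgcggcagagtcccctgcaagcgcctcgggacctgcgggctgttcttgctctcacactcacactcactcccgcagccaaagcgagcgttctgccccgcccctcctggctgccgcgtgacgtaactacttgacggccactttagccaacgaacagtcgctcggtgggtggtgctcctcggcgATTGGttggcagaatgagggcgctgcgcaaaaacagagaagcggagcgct
Pcdh20: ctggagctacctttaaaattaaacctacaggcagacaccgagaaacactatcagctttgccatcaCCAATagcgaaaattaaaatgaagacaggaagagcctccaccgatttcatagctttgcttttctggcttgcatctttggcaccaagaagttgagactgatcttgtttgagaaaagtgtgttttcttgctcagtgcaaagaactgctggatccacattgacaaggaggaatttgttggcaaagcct
Pcdh19: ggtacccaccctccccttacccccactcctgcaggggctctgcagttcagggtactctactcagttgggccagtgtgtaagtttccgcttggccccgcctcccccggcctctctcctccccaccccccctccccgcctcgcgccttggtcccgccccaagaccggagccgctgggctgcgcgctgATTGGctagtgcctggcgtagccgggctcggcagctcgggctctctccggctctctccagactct
RefSeq promoter windows were at hand for 9 of the 69 genes, all of them non-clustered. CCAAT on either strand was a motif chosen after the sequences were read. It occurred in 8 of the 9 (88.9%), Pcdh15 among them, and in 33.8% of all 32536 windows of this length. Because the motif was chosen from these same windows, the higher share is no test of enrichment. Other motifs were searched as well. CAGCTG occurred in 0 of the 9 and in 13.1% of all windows, and CAGGTG in 1 of the 9 (11.1%) and in 17.3%. CCAAT began 101 and 58 bases before the start in Pcdh17, 50 in Pcdh10, 185 in Pcdh20, and 65 in Pcdh19. Pcdh7, which was tested and not called, was the window without CCAAT. The Pcdh15 window lies 722525 bases from the start in the deposited table, and the other windows lie within 114 bases of theirs.

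During reprogramming most of the tested protocadherins rose. On day 2 against day 0, averaged over the genotypes, 36 of the 45 tested members were called higher and 1 lower, with a median log2 fold change of 1.28, when 22.2% of all 14932 tested genes were called higher and 19.9% lower and the median of all tested genes was -0.01. A gene was called when its limma adjusted p was 0.05 or lower and its log2 fold change reached 0.58 in either direction (1.49-fold), on values of log2(FPKM + 0.1), which understates the change of low genes. On day 4 against day 0, 36 of 45 were again higher and 1 lower, with a median of 1.47, against 24.4% of all tested genes higher and 21.2% lower. The same 36 genes were higher on both days. Both comparisons use the same day 0 libraries. The library size that the authors divided by was 0.865 to 0.925 times the fragments on genes on day 0, and 1.05 to 1.10 times on day 2 and 1.03 to 1.10 times on day 4. When every library was instead scaled to the same FPKM sum, the median of all tested genes shifted by 0.36 on day 2 and 0.29 on day 4, and the split of all calls moved from 3308 higher and 2967 lower to 5610 and 1361 on day 2 and from 3644 and 3161 to 5203 and 1816 on day 4. Under that scaling 39 of the 45 tested protocadherins were higher and 1 lower on day 2, and 37 and 1 on day 4. With a pseudocount of 1 FPKM, 28 were higher on day 2 and 30 on day 4, and 1 lower on each. Of all 14932 tested genes, 2265 were then higher and 2457 lower on day 2, and 2674 and 2660 on day 4. The filter on the mean over all libraries admits a gene low on day 0 only if it is higher later. With no filter, 48 of all 69 members were called higher on day 2 and 52 on day 4, and 1 lower on each. Of all 36800 genes in that fit, 13% were called higher on day 2 and 16.6% on day 4.

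Without regard to the fit, all 9 libraries of day 2 lay above all 9 of day 0 for 32 of the 45 tested members, and for 19.7% of all tested genes. On day 4 this held for 31 of the 45, and for 19.8% of all tested genes. Pcdhb9 was the only member called from day 2 to day 4, higher by 0.63 on the log2 scale (standard error 0.19, adjusted p = 0.0152), when 6.54% of all tested genes were called higher. It was not called with a pseudocount of 1 or 0.01, with libraries scaled to the same sum, or over WT and Per1-/- alone. Of the 45 members, 10 had an unadjusted p under 0.05, when 40.4% of all tested genes had one.

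Among the non-clustered genes, 6 of 9 tested rose on both days, with Pcdh17, Pcdh10, and Pcdh20 having the largest changes (plots of the 9 genes by day). Of all tested genes, 22.2% were called higher on day 2 and 24.4% on day 4. The summed level of all 12 was at 467.7 to 598.9 FPM (fragments scaled by library size as in FPKM, not divided by exon length) on day 0, 826.4 to 1105 FPM on day 2, and 805.2 to 1077 FPM on day 4. Pcdh17, which organises synapses in corticobasal ganglia circuits, was at 0.370, 0.625, and 0.809 FPKM (lowest, median, and highest of 9 libraries) on day 0, at 9.12, 10.3, and 15.3 FPKM on day 2, and at 6.84, 7.95, and 12.4 FPKM on day 4. Every library of days 2 and 4 lay far above every library of day 0. The log2 fold change was 3.99 on day 2 (standard error 0.13, adjusted p = 3.7e-16) and 3.61 on day 4 (adjusted p = 1.26e-15), or 15.9-fold and 12.2-fold.

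**Figure D1:**
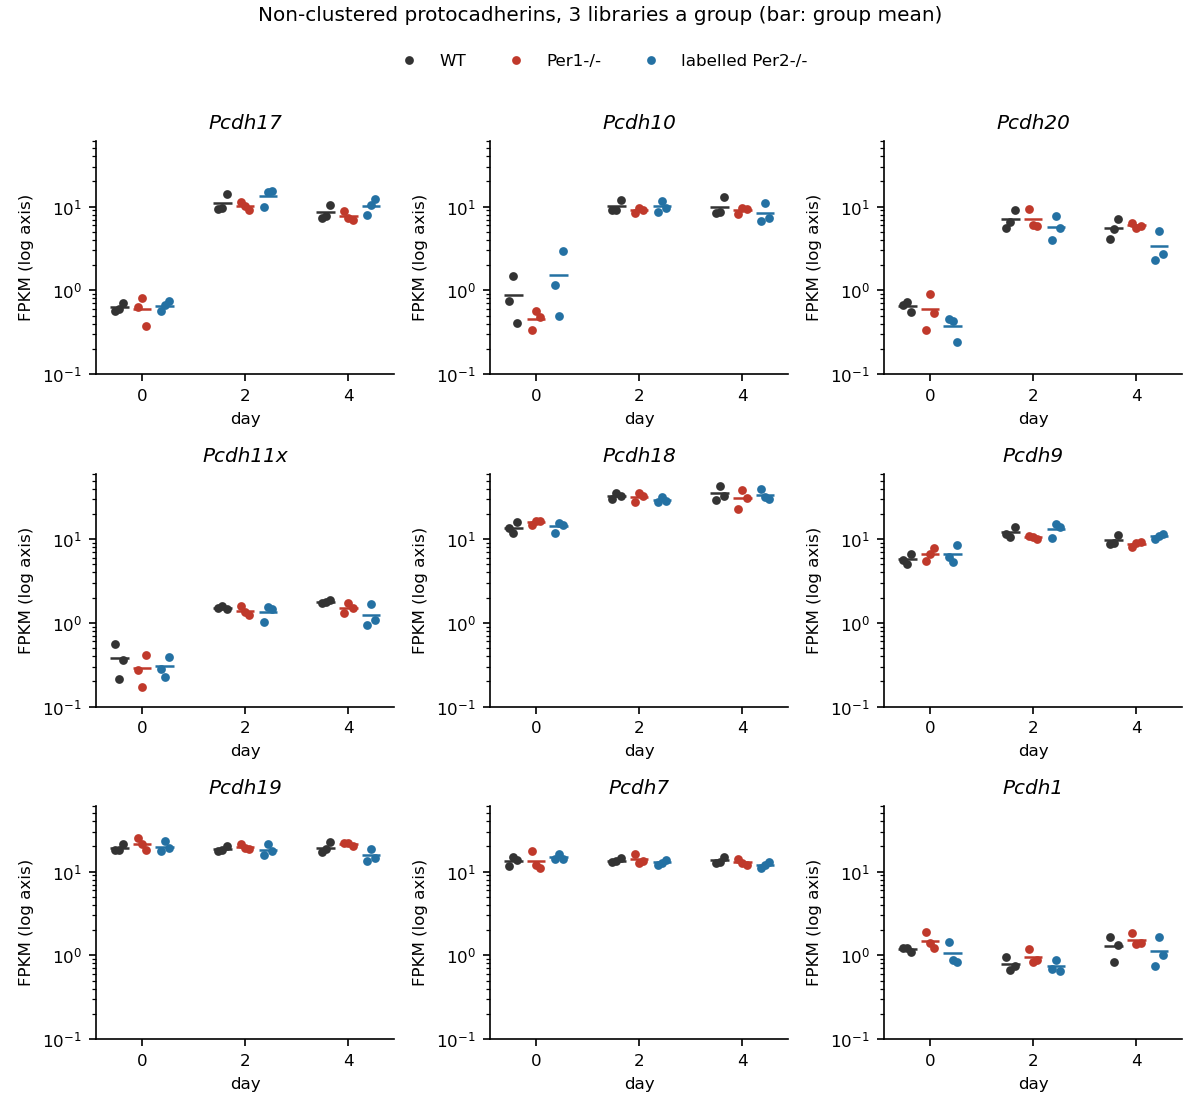
FPKM (log axis) of the 9 tested non-clustered protocadherins in each of the 27 libraries by day, with points for libraries, bars for group means, and colours for genotype. Pcdh17, Pcdh10, and Pcdh20 move from below 3 FPKM in every day 0 library to above 2.3 FPKM in every later library, whereas Pcdh19 and Pcdh7 stay between 11 and 25 FPKM.

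Pcdh10, an adhesion protein that guides axons and brings WAVE components to cell contacts, was at 0.335, 0.559, and 2.93 FPKM on day 0, at 8.39, 9.24, and 11.9 FPKM on day 2, and at 6.77, 8.65, and 12.98 FPKM on day 4. The groups of days did not overlap, although on day 0 replicate 3 of the libraries labelled Per2-/- alone held the 2.93 FPKM. Pcdh10 rose by 3.50 on the log2 scale on day 2 (standard error 0.23, adjusted p = 1.64e-11) and 3.40 on day 4 (adjusted p = 2.31e-11). Pcdh20 was at 0.243, 0.543, and 0.910 FPKM on day 0, at 3.95, 6.1, and 9.36 FPKM on day 2, and at 2.32, 5.48, and 7.06 FPKM on day 4. Again no later library reached down to day 0, and the log2 fold change was 3.42 on day 2 (standard error 0.18, adjusted p = 5.7e-13) and 2.98 on day 4 (adjusted p = 4.07e-12). Pcdh17 and Pcdh20 both lie on chromosome 14, from 84443563 to 84539002 and from 88464743 to 88471396, and Pcdh9 lies there from 93013410 to 93890679.

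Pcdh18, a delta-2 member, had the highest mean FPKM of all protocadherins, 26.5, and lies on chromosome 3 from 49743296 to 49757325, while Pcdh10 lies there from 45378398 to 45435623. It was at 11.7, 15.0, and 16.7 FPKM on day 0, at 27.4, 32.0, and 35.9 FPKM on day 2, and at 22.9, 32.3, and 43.3 FPKM on day 4. The days did not overlap with day 0, and its level rose 2.15-fold (log2 fold change 1.10, standard error 0.10, adjusted p = 1.87e-09) on day 2 and 2.26-fold on day 4. The delta-1 member Pcdh9 was at 5.06, 6.1, and 8.4 FPKM on day 0, at 10.2, 11.02, and 15.1 FPKM on day 2, and at 8.16, 9.35, and 11.6 FPKM on day 4. It rose by 0.90 (standard error 0.10, adjusted p = 2.44e-08) on day 2 and 0.62 on day 4, and the day 4 value lies close to the threshold, since it was 0.58 without Per1-/- day 0 replicate 1 or without day 0 replicate 2 labelled Per2-/-, just under the minimum before rounding, and 0.56 with a pseudocount of 1 and 0.57 over WT and Per1-/- alone. Pcdh11x, another delta-1 member, was at 0.172 to 0.562 FPKM on day 0 and 1.01 to 1.58 FPKM on day 2, and rose by 1.89 on day 2 and 1.95 on day 4 (adjusted p = 3.98e-10 and 2.01e-10).

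Of the non-clustered genes tested, 3 were not called. Pcdh19, the delta-2 gene whose loss causes an X-linked epilepsy, was at 17.7, 19.1, and 24.9 FPKM on day 0, at 15.8, 18.8, and 21.2 FPKM on day 2, and at 13.5, 18.9, and 22.6 FPKM on day 4. Pcdh7, a delta-1 member that binds a protein phosphatase, was at 11.02, 14.1, and 17.5 FPKM on day 0, at 12.1, 13.3, and 16.2 FPKM on day 2, and at 11.2, 12.8, and 15.0 FPKM on day 4. The days overlapped for both, although the lowest Pcdh19 libraries of days 2 and 4 lay below every day 0 library. The log2 fold changes were -0.10 and -0.12 for Pcdh19 and -0.03 and -0.10 for Pcdh7, and these signs turned with libraries scaled to the same sum. The delta-1 gene Pcdh1 was at 0.825 to 1.89 FPKM on day 0, 0.656 to 1.18 FPKM on day 2, and 0.745 to 1.83 FPKM on day 4. Its log2 fold change was -0.51 on day 2 (standard error 0.16, adjusted p = 0.00563), short of the minimum fold change, and 0.06 on day 4.

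Pcdh8, Pcdh12, and Pcdh15 were under the filter. Pcdh8, an activity-regulated member, had 47 fragments over the 9 libraries of day 0, 222 on day 2, and 718 on day 4, but a single library, day 4 replicate 1 labelled Per2-/-, was at 3.45 FPKM when the next highest was at 0.723 FPKM. Pcdh15, known from the tip links of hair cells, had 173, 1446, and 1197 fragments on days 0, 2, and 4, and all later libraries lay above day 0. In the fit with no filter on low values, where 13% of 36800 genes were called higher on day 2 and 16.6% on day 4, both were called higher on both days, by 1.07 and 2.15 for Pcdh8 and by 1.52 and 1.31 for Pcdh15. Pcdh12, an endothelial and trophoblast gene, had 13, 8, and 10 fragments in all.

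The beta genes, on chromosome 18 from 37264938 to 37524479 (GRCm38, plus strand) between the alpha and gamma clusters, rose together. All 15 that were tested were called higher on both days, by 1.47 to 2.83 on the log2 scale on day 2 (median 2.01) and by 1.77 to 2.93 on day 4 (median 2.24). Of all tested genes, 22.2% were called higher on day 2 and 24.4% on day 4. The filter used the mean over all libraries. Most of the 15, such as Pcdhb11 (day 0 mean 0.066 FPKM), lay below 0.5 FPKM on day 0 and could pass only by being higher later. For such genes a rise was part of being tested, so the full count is no support for a rise. Only Pcdhb16, Pcdhb17, and Pcdhb22 had day 0 means above 0.5 FPKM in each genotype. In the fit with no filter, 21 of the 22 beta genes were called higher on each day, against 13% of all genes there on day 2 and 16.6% on day 4. For each of the 15, every library of days 2 and 4 lay above every library of day 0. This held for 19.7% of all tested genes on day 2 and 19.8% on day 4. The beta genes together, in FPM, were at 21.5, 29.5, and 48.2 on day 0, at 115.9, 143.9, and 179.8 on day 2, and at 152.2, 178.7, and 190.2 on day 4 (lowest, median, and highest of 9 libraries).

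Pcdhb17 had the highest mean of the beta genes, 4.14 FPKM. It was at 0.905, 1.53, and 2.12 FPKM on day 0, at 3.6, 4.7, and 6.02 FPKM on day 2, and at 5.14, 5.68, and 6.94 FPKM on day 4, and rose by 1.66 and 1.95 (standard error 0.14, adjusted p = 4.49e-10 and 3.02e-11). Pcdhb19 had the largest change on day 2. It was at 0.275, 0.379, and 0.775 FPKM on day 0, at 2.92, 3.92, and 4.19 FPKM on day 2, and at 2.93, 3.58, and 3.9 FPKM on day 4, a rise of 2.83 on day 2 (standard error 0.15, adjusted p = 2.7e-13) and 2.80 on day 4. Its neighbour Pcdhb20 was at 0.190, 0.504, and 0.775 FPKM on day 0, at 2.84, 3.24, and 4.66 FPKM on day 2, and at 3.36, 4.03, and 4.75 FPKM on day 4, and rose by 2.62 and 2.84. In all 3 genes the lowest later library was above the highest library of day 0.

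Pcdhb11 went from near absence, 0, 0.0386, and 0.204 FPKM on day 0, to 0.423, 0.746, and 1.27 FPKM on day 2 and 0.676, 1.01, and 1.85 FPKM on day 4, a rise of 2.52 and 2.93. Pcdhb9, the member also called from day 2 to day 4, was at 0.0222, 0.149, and 0.266 FPKM on day 0, at 0.632, 0.826, and 1.05 FPKM on day 2, and at 0.977, 1.24, and 1.75 FPKM on day 4. The day 2 and day 4 ranges of both genes overlapped each other but not day 0. Of the 7 beta genes under the filter, 6 were called higher on both days in the fit with no filter, against the 13% and 16.6% of all genes there (Pcdhb4, Pcdhb6, Pcdhb8, Pcdhb10, Pcdhb12, and Pcdhb13), and Pcdhb1 had 6 fragments over all libraries. Beta members with at least 5 fragments numbered 13 to 18 in a library of day 0 and 20 or 21 in a library of day 2. Beta exons are almost all their own, other than 455 bases that Pcdhb21 and Pcdhb22 share and the overlap of Pcdhb12 with a predicted gene.

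The gamma genes rose less, and the changes were smaller towards the end of the cluster (chromosome 18, 37661793 to 37841873). Of 20 tested, 14 were called higher and 1 lower on both days, with a median log2 fold change of 0.89 on day 2 and 1.00 on day 4. The shares of all tested genes were 22.2% higher and 19.9% lower on day 2, and 24.4% and 21.2% on day 4. The 8 tested genes at the start of the cluster, Pcdhga1 to Pcdhga6, changed by 0.36 to 1.83 on day 2 (median 1.25), and the 9 that follow, Pcdhga7 to Pcdhga12, by -0.26 to 1.07 (median 0.76). The rank correlation between place in the cluster and the day 2 change over the 17 genes before the C-type genes was -0.81, and it was -0.79 for day 4, given as a description, since the genes share libraries and constant exons. Among the 15 beta genes it was 0.26 on day 2 and 0.08 on day 4.

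**Figure D2:**
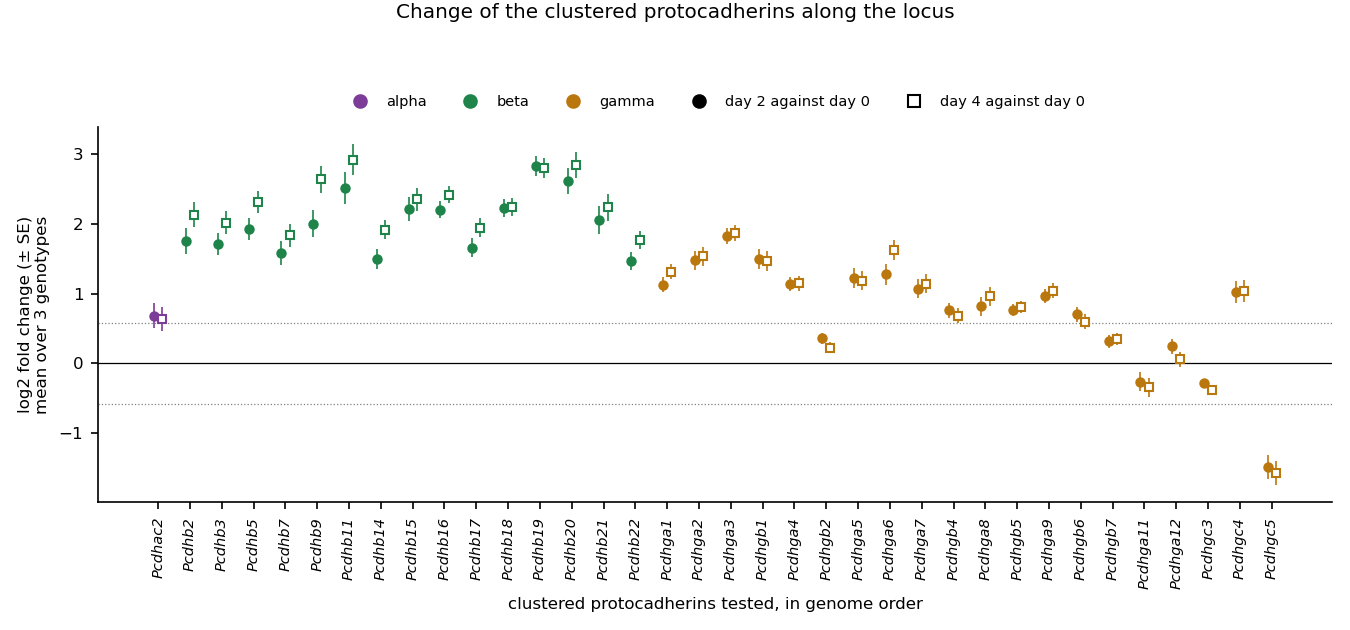
Log2 fold change against day 0 (vertical axis, mean over the 3 genotypes, bars for the standard error) of the 36 tested clustered protocadherins in genome order, with filled circles for day 2, open squares for day 4, and dotted lines at 0.58 in size. All 15 beta genes lie above 1.4, the gamma values step down from 1.83 at Pcdhga3 to -0.26 at Pcdhga11 on day 2, and Pcdhgc5 lies below -1.4. The sign of Pcdhga11 and of Pcdhgc3 on day 2 turns with libraries scaled to the same sum.

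Pcdhga3 led the gamma genes in change. It was at 1.21, 1.35, and 2.48 FPKM on day 0, at 4.84, 5.52, and 6.67 FPKM on day 2, and at 4.9, 5.68, and 6.97 FPKM on day 4, and rose by 1.83 (standard error 0.11, adjusted p = 5.75e-12) and 1.87. Pcdhgb2, 3 genes further on, was an exception to the order, at 2.78, 3.92, and 4.74 FPKM on day 0 and 4.27, 4.91, and 5.55 FPKM on day 2, and its change of 0.36 (standard error 0.08, adjusted p = 0.000613) was under the minimum fold. Pcdhgb6 was the second most abundant gamma gene with a mean of 5.71 FPKM. It was at 3.18, 3.78, and 5.8 FPKM on day 0, at 5.77, 6.59, and 8.06 FPKM on day 2, and at 5.53, 6.23, and 7.21 FPKM on day 4, so the days overlapped slightly. It rose by 0.70 on day 2 and 0.60 on day 4 (adjusted p = 4.13e-06 and 2.75e-05), and the day 4 value was below the minimum, between 0.54 and 0.57, without WT day 0 replicate 2, without Per1-/- day 0 replicate 2 or 3, without Per1-/- day 4 replicate 1, or without day 0 replicate 1 labelled Per2-/-, and 0.51 with a pseudocount of 1.

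The 3 C-type gamma genes went separate ways. Pcdhgc3 was by far the most abundant gamma gene, at 14.8, 17.3, and 22.4 FPKM on day 0, at 13.9, 14.4, and 15.8 FPKM on day 2, and at 13.01, 13.4, and 15.7 FPKM on day 4. Its log2 fold change of -0.29 on day 2 and -0.38 on day 4 (standard error 0.06, adjusted p = 0.000302 and 9.86e-06) was under the minimum fold, and it was 0.10 and -0.08 with libraries scaled to the same sum. Pcdhgc4, known to keep interneurons alive, was at 0.359, 0.484, and 0.988 FPKM on day 0, at 0.900, 1.09, and 1.40 FPKM on day 2, and at 0.731, 1.15, and 1.47 FPKM on day 4. It rose by 1.02 and 1.04 (standard error 0.16, adjusted p = 4.34e-06 and 3.22e-06), and only the highest library of day 0, Per1-/- replicate 1, overlapped the later days. With a pseudocount of 1 the values were 0.49 and 0.50, below the minimum fold.

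Pcdhgc5 was the 1 protocadherin called lower. It was at 1.15, 2.15, and 3.23 FPKM on day 0, at 0.408, 0.680, and 0.821 FPKM on day 2, and at 0.478, 0.582, and 0.784 FPKM on day 4, with no overlap between day 0 and either later day. Its log2 fold change was -1.48 on day 2 and -1.58 on day 4 (standard error 0.17, adjusted p = 8.31e-08 and 3.02e-08), or 0.357 and 0.335 of the day 0 level. Its gene begins inside the span of Pcdhgc3 and ends at the same constant exons, so 3021 of its 7627 exon bases are shared.

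Pcdhgc3 held 34.0, 37.8, and 45.3% of all gamma fragments on day 0 (lowest, median, and highest of 9 libraries), 20.4, 22.8, and 24.4% on day 2, and 19.8, 21.7, and 23.0% on day 4. Fragments of all gamma genes together were at 209.8 to 332.6 FPM on day 0, 331.3 to 390.6 on day 2, and 326.9 to 384.8 on day 4, so the highest library of day 0 touched the lowest of the later days. Gamma fragments were thus spread more evenly over the genes later on, while the genes with a fragment numbered 20 or 21 in a library on each of the days. The number of equally used gamma genes that would give the same spread, the exponential of the Shannon entropy of the shares, was 9.06 to 11.9 on day 0 and 14.7 to 15.2 on day 2.

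**Figure D3:**
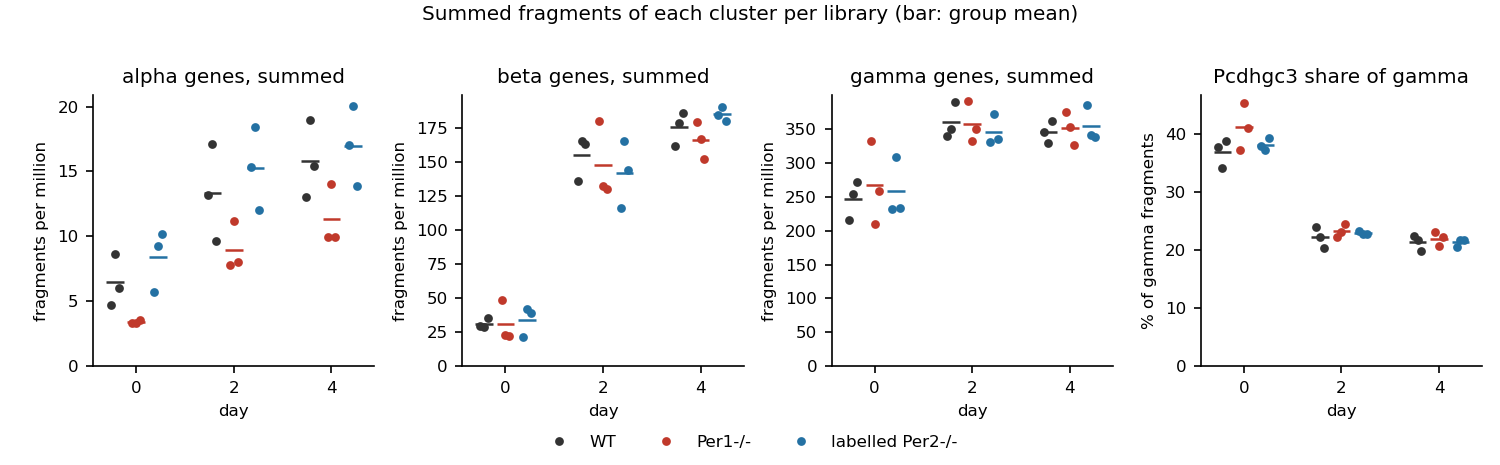
Summed level (fragments scaled by library size as in FPKM, without gene length) of the alpha, beta, and gamma genes, and the share of gamma fragments on Pcdhgc3 in percent, for each library by day, with bars for group means and colours for genotype. Beta sums lie between 21.5 and 48.2 on day 0 and above 115 later, and the Pcdhgc3 share is at least 34.0% on day 0 and at most 24.4% later, without overlap.

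The level of a gamma or alpha gene is affected by its shared exons. Pcdhga10 has 0 of its 4732 exon bases to itself and received 100 fragments over all libraries, and Pcdha4 has 404 to itself and received 3, so few fragments were credited to a gene without exons of its own. Per kilobase of the exon bases a gene has to itself, Pcdhgc3 had a mean of 46.7, Pcdhgb6 of 10.4, and Pcdh18 of 26.5, in the same units as FPKM. Dividing by either length leaves the ratio between days as it is.

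The alpha genes (chromosome 18, 36930184 to 37187661) had the lowest summed level of the 4 classes, 3.31 to 10.2 FPM on day 0 and 9.92 to 20.0 FPM on day 4. Of the 14, Pcdhac2 alone passed the filter, at 0.395, 0.772, and 1.49 FPKM on day 0, at 0.787, 1.35, and 2.07 FPKM on day 2, and at 0.619, 1.25, and 2.07 FPKM on day 4. The days overlapped, and it rose by 0.69 on day 2 (standard error 0.18, adjusted p = 0.00148) and 0.64 on day 4 (adjusted p = 0.00264). Neither day was called with a pseudocount of 1, and the day 4 value was below the minimum fold, to between 0.55 and 0.57, without WT day 0 replicate 1, WT day 4 replicate 2, Per1-/- day 4 replicate 2, or day 0 replicate 1 labelled Per2-/-. The other C-type gene, Pcdhac1, had 3 fragments over the 9 libraries of day 0, 46 on day 2, and 21 on day 4.

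The other 13 alpha genes together had 165 fragments on day 0, 785 on day 2, and 1272 on day 4, or 0.548 to 1.45, 3.13 to 6.67, and 5.09 to 9.49 FPM per library, so the 3 days overlapped between days 2 and 4 only. Pcdhac2 held 70.3 to 90.9% of alpha fragments on day 0 and 36.6 to 64.6% on day 4. In the fit with no filter, 4 of these 13 were called higher on day 2, against 13% of all genes, and 8 on day 4, against 16.6%. Pcdha9 had 20, 105, and 241 fragments on days 0, 2, and 4, and was called higher by 0.75 and 1.46 on the log2 scale. One of a pair of rows that share the symbol Pcdha11 (ENSMUSG00000007440) had 46, 238, and 323 fragments and was called higher by 1.11 and 1.43, whereas the other (ENSMUSG00000102206) had 3, 8, and 3.

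Other cadherins were set beside the protocadherins from lists of the superfamily. Of 21 tested classical cadherins and catenins, 10 were higher and 4 lower on day 4 (median 0.51), when 24.4% of all tested genes were higher and 21.2% lower. N-cadherin (Cdh2), an adhesion molecule of both mesenchyme and neurons, was lower by 0.82 and Cdh8 higher by 4.63. Of 9 tested genes of the Fat, Dchs, Celsr, and Clstn families, 8 were higher (median 2.09), against the same 24.4% of all tested genes. Among the 8 was Celsr3, which guides axons, higher by 4.28. The Fat1 value was -0.07. No test set the families against each other.

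**Figure D4:**
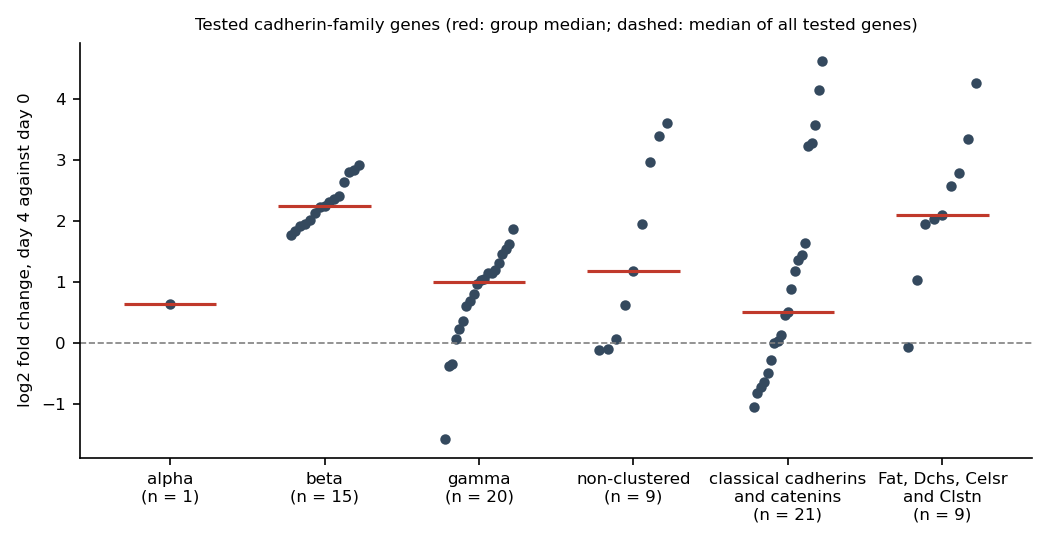
Log2 fold change on day 4 against day 0 (vertical axis, mean over genotypes) of each tested gene in the 4 protocadherin classes and in 2 other cadherin lists, with red lines for the group medians and a dashed line for the median of all tested genes. The 15 beta genes span 1.77 to 2.93, a narrower range than the gamma genes (-1.58 to 1.87) or the non-clustered genes (-0.12 to 3.61).

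Genes that act on or with protocadherins were given from lists as well. Of 20 genes for factors at clustered protocadherin promoters and chromatin, all tested, 2 were higher and 0 lower on both days at the thresholds of limma, against 22.2% of all tested genes higher and 19.9% lower on day 2, and 13 had an unadjusted p under 0.05 on day 2, as did 76.8% of all tested genes. The 2 were Dnmt3a, a DNA methyltransferase, which rose by 1.27 and 1.75, and Mau2, a cohesin loader, by 0.79 and 0.74. Ctcf, the factor that binds the clustered promoters, was at 14.7 ± 1.43 FPKM (SD, n = 9) on day 0 and 21.2 ± 1.36 FPKM on day 2, a log2 fold change of 0.53 (standard error 0.05), under the minimum fold. Of 18 tested intracellular partners, 6 were higher and 4 lower on day 2, when 22.2% of all tested genes were higher and 19.9% lower. Those that rose included Cyfip2 and Wasf1, subunits of the WAVE complex common in neurons, by 3.52 and 1.30, and those that fell included Nckap1, by 0.71, and Rac1, by 0.59. Nckap1l, a WAVE subunit of blood cells, rose by 0.85 and 1.95, and its relation to the macrophage markers was not tested.

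Within each genotype most members rose as well. On day 2, 35 of the 45 tested members were higher in WT (20.8% of all tested genes), 36 in Per1-/- (20.8%), and 35 where the label was Per2-/- (18.7%), and 35 were higher in all 3 genotypes. On day 4 the numbers were 35 in WT (22.9%), 35 in Per1-/- (22.6%), and 34 where the label was Per2-/- (21.6%), and 33 were higher in all 3. Pcdhgc5 was the 1 lower member in each. With the replicate number as a block, Per1-/- on day 2 had 36 higher and 2 lower members, the other being Pcdh1 (-0.58, adjusted p = 0.0477 from limma, and 0.0689 without the block). On day 2 the missing call was Pcdhac2, both in WT and under the Per2-/- label. Averaged over WT and Per1-/- alone, which was added once the data had been seen, 36 members were higher and 1 lower on day 2 and 35 and 1 on day 4. Whether the changes differed between genotypes was tested by interaction, and 0 of the 45 members were called in any of the 4 contrasts with limma (0% of all tested genes), 0 with voom weights, and 0 at an unadjusted p under 0.05.

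Between genotypes on a given day, none of the 45 was called with limma or with voom weights. The share of all tested genes called in Per1-/- against WT was 0.0134, 0.0067, and 0.0268% on days 0, 2, and 4, in Per1-/- against the libraries labelled Per2-/- 0.0201, 0.0737, and 0.556%, and in the latter against WT 0.0067, 0.0268, and 0.0067%. An unadjusted p under 0.05 was found for 2, 0, and 1 members in Per1-/- against WT on days 0, 2, and 4, when 4.82, 2.75, and 6.19% of all tested genes had one. For Per1-/- against the libraries labelled Per2-/- it was 4, 1, and 3 members, with 5.97, 8.22, and 13.2% of all tested genes, and for the latter against WT 3, 0, and 2 members, with 3.94, 2.87, and 3.42%. The paper used DESeq2 at the same thresholds and reported far more genes that differed between Per1-/- and both other genotypes on days 2 and 4. With 3 libraries a group, the lack of calls here does not show that the genotypes were alike. The members below are described for their values and were not called. Macrophage markers were summed at 844.7 to 1317 FPKM in Per1-/- on day 4, above the 469.7 to 620.9 FPKM of WT and the 343.8 to 440.7 FPKM of the libraries labelled Per2-/-, and on day 2 at 440.3 to 737.6 FPKM against 222.3 to 322.6 FPKM in WT and 128.3 to 219.1 FPKM under the Per2-/- label. On day 0 the 3 genotypes overlapped. The part of this in the values that follow was not tested.

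Pcdhac2 had the lowest unadjusted p. On day 0 it was at 0.395, 0.441, and 0.449 FPKM in Per1-/-, at 0.669, 1.26, and 0.931 FPKM in WT, and at 0.772, 1.35, and 1.49 FPKM in the libraries labelled Per2-/-. The 3 Per1-/- libraries lay below all the others of that day. On day 2 it was at 0.787, 1.196, and 0.820 FPKM in Per1-/-, at 1.55, 2.07, and 0.944 FPKM in WT, and at 1.84, 2.0, and 1.35 FPKM in the libraries labelled Per2-/-, and Per1-/- overlapped WT only. On day 4 it was at 0.619, 1.25, and 0.820 FPKM in Per1-/-, at 1.26, 2.07, and 1.204 FPKM in WT, and at 1.87, 1.79, and 1.23 FPKM in the libraries labelled Per2-/-, and Per1-/- overlapped both. The log2 fold change of Per1-/- against WT was -0.96, -0.61, and -0.70 on days 0, 2, and 4 (standard error 0.31, adjusted p = 0.806, 0.999, and 0.745), and against the libraries labelled Per2-/- -1.26, -0.83, and -0.82 (adjusted p = 0.336, 0.408, and 0.226), so none passed the adjustment.

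**Figure D5:**
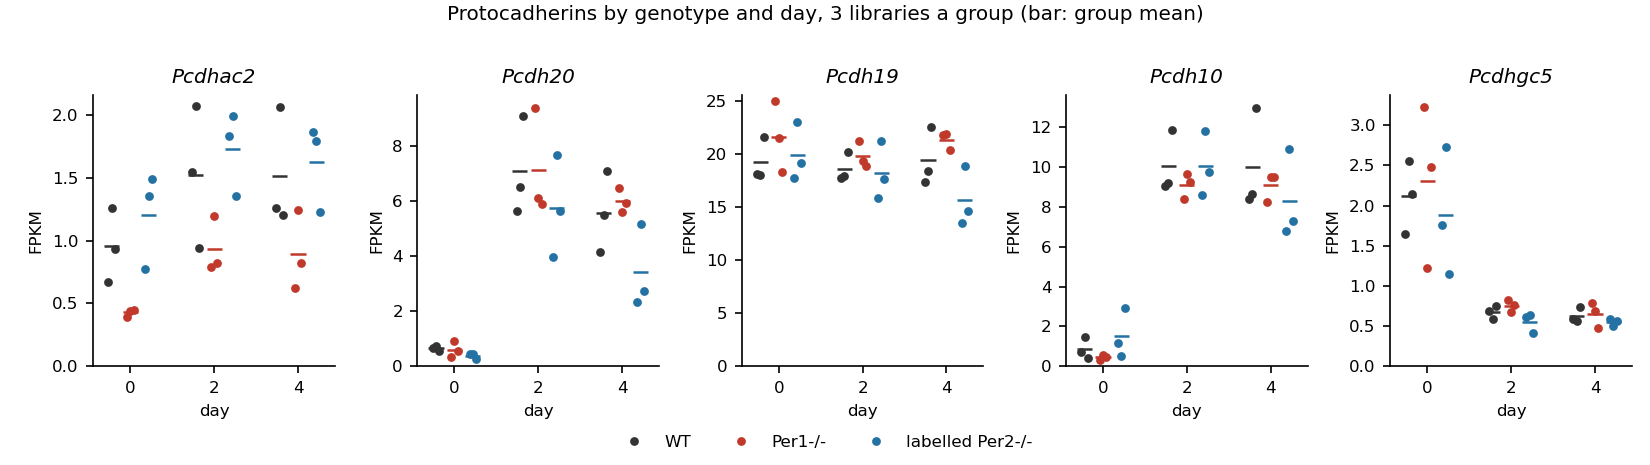
FPKM of 5 protocadherins in each library by day, with bars for group means and colours for genotype. Pcdhac2 lies lowest in the 3 Per1-/- libraries of day 0, and Pcdh20 and Pcdh19 lie higher in Per1-/- than in the libraries labelled Per2-/- on day 4, none of which passed the adjustment for all genes.

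On day 4, Pcdh19 was at 21.8, 21.8, and 20.3 FPKM in Per1-/-, at 17.3, 18.4, and 22.6 FPKM in WT, and at 13.5, 18.9, and 14.6 FPKM in the libraries labelled Per2-/-. Per1-/- lay above the latter without overlap, with a log2 fold change of 0.46 (standard error 0.14, adjusted p = 0.135). Without day 4 replicate 2 labelled Per2-/- the difference was 0.60 and passed both thresholds. Pcdh20 was at 6.46, 5.58, and 5.91 FPKM in Per1-/-, at 4.14, 5.48, and 7.06 FPKM in WT, and at 2.32, 5.16, and 2.74 FPKM in the libraries labelled Per2-/-, which all lay below Per1-/- (log2 fold change 0.88, standard error 0.32, adjusted p = 0.213). On day 0, Pcdh10 was at 0.335, 0.559, and 0.482 FPKM in Per1-/- and at 1.17, 0.501, and 2.93 FPKM in the libraries labelled Per2-/- (log2 fold change -1.26, standard error 0.40, adjusted p = 0.616), and the groups overlapped.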

How the data were processed

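Poly-A RNA of 27 libraries was sequenced. The libraries were nondirectional, so reads of a gene and of an antisense partner cannot be told apart. The authors aligned reads to GRCm38 (mm10) with HISAT2 2.0.5, counted them with featureCounts 1.5.0-p3, and deposited FPKM for 54532 genes with gene lengths. How reads on shared exons or at several places were counted is not given in the sources used here. Each deposited FPKM value times gene length gave a whole number of fragments (100% of values above 0, tolerance 0.01), from which the library size behind FPKM was read.

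Values were taken as log2(FPKM + 0.1). Genes averaging 0.5 FPKM or more over the libraries, 14932 in number, were fitted in limma 3.58.1 (R 4.3.3; lmFit, contrasts.fit, eBayes with trend), 1 model of 9 groups without a block, with Benjamini-Hochberg adjustment over the genes of each comparison. Called genes had an adjusted p of 0.05 or lower and a log2 fold change that reached 0.58 in either direction, the study's thresholds. Replicates are biological per the labels. The fit was tested on simulated data. Same-numbered libraries deviated together, with each of the 3 correlations over 0.1, between days 0 and 2 and between days 2 and 4 in Per1-/- and between days 2 and 4 in WT, so of the comparisons made the numbers were taken as pairs for day 2 against day 0 in Per1-/-. Shared exons were read from GENCODE M21 on the same build, and promoter windows from RefSeq (GRCm38.p6). Summaries used Python 3.11.15, pandas 2.3.3, numpy 2.4.6, and matplotlib 3.10.9.

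The members and gene lists were chosen with earlier results of these data known. Every member may be named. Values per library are given for the highest members of each class, the C-type members, and those called with the largest changes. Alternatives were other pseudocounts (1 and 0.01), a filter of 1 FPKM or none, a replicate block, libraries scaled to the same FPKM sum, voom weights on the fragments, a fit of only the groups compared, no minimum fold change, and each library left out. The mean over WT and Per1-/- only was added after the data were seen. One item of the study and the results that need it are not reported here.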

Additional observations from a re-analysis of the deposited data

Results flagged for a closer look

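Pcdhgb8, a member of the gamma cluster that the annotation calls a polymorphic pseudogene, was outside the protein-coding genes and so is not counted among the members, although it was among the genes fitted. It was singled out because it carried signal, 1260 fragments over the 27 libraries, with at least 23 in every library. It was at 0.262 to 0.788 FPKM on day 0, 0.356 to 0.567 FPKM on day 2, and 0.444 to 0.742 FPKM on day 4, and its log2 fold change on day 2 was -0.09 (standard error 0.16, adjusted p = 0.638 from limma). Groups of 3 libraries were too small to be screened for single distant values.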

How the results depend on the processing

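Over the alternatives other than leaving out 1 library, 28 to 49 members were called on day 2 against day 0 and 28 to 53 on day 4, against 37 on both, and with 1 library left out 37 on day 2 and 35 to 37 on day 4. The lower ends have a construction behind them, since a filter of 1 FPKM tested 36 members, and the upper ends tested all 69 with no filter. Counts within a genotype ranged from 26 to 50. From day 2 to day 4, where 1 member was called, 0 were called with a pseudocount of 1, with a filter of 1 FPKM, and with libraries scaled to the same sum, 2 with voom weights, 5 with no filter, and 5 with no minimum fold change, and the cause was not tested except that the filters change which genes are tested. Leaving out 1 library gave 1 to 2 there. In the genotype and interaction comparisons 0 were called under each setting, other than 0 to 1 for Per1-/- against the libraries labelled Per2-/- on day 4 with 1 library left out. With libraries scaled to the same sum, the day 2 values became 0.29 for Pcdh19, 0.35 for Pcdh7, 0.10 for Pcdhgc3, and 0.091 for Pcdhga11, and the day 4 values 0.19 for Pcdh19 and 0.20 for Pcdh7, by construction, since that scaling moved the median of all genes by 0.36 and 0.29. Over WT and Per1-/- only, Pcdh7 was at 0.048 on day 2 and Pcdh19 at 0.0026 on day 4, and the cause was not tested. With 1 library left out, Pcdh7 ranged from -0.079 to 0.032 on day 2 and Pcdh1 from -0.040 to 0.14 on day 4. Pcdhb9 from day 2 to day 4 was at 0.35, 0.69, 0.57, and 0.47 where its call was lost (pseudocount 1, pseudocount 0.01, rescaled FPKM, WT and Per1-/- only).

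Same-numbered libraries of a day had correlations of their deviations of -0.26 to 0.19 between genotypes, and those of a genotype -0.02 to 0.29 between days, and outside day 2 against day 0 in Per1-/- the numbers were not taken to pair libraries. With the replicate block, 37 members were called on day 2, 37 on day 4, and 1 from day 2 to day 4, as without it, and in WT 37 on each day, since Pcdhac2 was then called higher, and 38 in Per1-/- on day 2. The block changed no other call.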
